A study of Mus musculus with 12 samples.

Results

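The genes described are G protein-coupled receptors of 9 symbol families, taken as the symbols made of Gpr, Ccr, Cxcr, P2ry, Lpar, S1pr or Ptger and a number, of Adora and its subtypes, and of Adgr with a letter and a number. The files list 140 such symbols, and 125 of them were above 0 in at least 1 of 12 libraries, out of 16776 genes above 0 in the whole series (0.745%). These comprised 59 Gpr, 24 Adgr, 10 Ccr, 8 P2ry, 6 Cxcr, 5 S1pr, 5 Lpar, 4 Ptger and 4 Adora genes. The members were thus chosen by their symbols and by RPKM above 0, so the number detected is a description and was not tested. Just inside the rule lay 7 receptors with 1 read in 1 library, among them Gpr50, Gpr135, Adgrf1 and Adgrf5, and 15 symbols at 0 lay just outside it. Receptors under other symbols are not members, and Gpr89, Gpr107 and Gpr108 match by name but are known as proteins of the Golgi rather than classical receptors of the cell surface.

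The libraries came from a mouse CML-like model. BM cells of 5FU-treated mice, in which Vav1-Cre switches on the G0 marker (G0M) from the Rosa26 allele in blood cells, were transduced with a retrovirus carrying BCR-ABL1 and transplanted into lethally irradiated C57BL/6 mice. The model thus rests on retroviral overexpression, and G0M is on only in cells that Vav1-Cre reached. G0M is a fluorescent fusion with a p27 mutant that lacks CDK inhibition, and it marks cells in the G0 phase. From BM and spleen, 100 BCR-ABL1+ CD27+ LSK cells were sorted per library, LSK being the gate for c-Kit and Sca1 on cells without lineage markers. DP cells were G0M+CD27+ and SP cells were G0M-CD27+, both from vehicle-treated mice, and IMDP and IMSP cells were the same populations after daily oral gavage of imatinib, which blocks the kinase activity of BCR-ABL1. Each group had 3 libraries, and no source states whether they came from separate mice, so the spread between them may be technical in part. The imatinib libraries carry the library numbers 1 to 6 and the vehicle libraries 7 to 12, so a difference with treatment and a difference with library order cannot be told apart.

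A G protein-coupled receptor spans the membrane and, on binding a chemokine, lipid, nucleotide or other ligand, activates a G protein made of alpha, beta and gamma subunits. Gi-coupled receptors such as Cxcr4 lower cAMP and drive migration, whereas Gs-coupled receptors such as Adora2a and Adora2b raise cAMP. Receptor kinases and arrestins end the signal at the receptor, and RGS proteins end it at the alpha subunit. In the BM, Cxcr4 retains hematopoietic stem and progenitor cells next to stromal cells that make its ligand Cxcl12, and S1P receptors guide cells toward blood and lymph.

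Expression was deposited as RPKM, reads scaled to transcript length and to the reads of the library. The total behind the RPKM was 11.4 to 20.6 M reads per library, of which 25.2% to 36.1% lay on listed genes, and the receptors took 13856 to 22717 reads per library. Mki67, a proliferation gene, was lower in G0M+ cells (14.7 RPKM in DP against 54.2 in SP, 8.16 in IMDP against 61.1 in IMSP, adjusted p = 6.12e-06 over both pairs), and the sort genes Kit and Cd27 were expressed in every library. Markers of other cells were present as well. The summed RPKM of 10 mast cell and basophil genes was 76.9 to 333 in DP, 14.9 to 195 in IMDP, 10.5 to 23.0 in SP and 7.92 to 24.4 in IMSP libraries, and 4 of the 7 tested were called higher in G0M+ cells (Cma1, Fcer1a, Mcpt8 and Prss34). The sum of 10 neutrophil genes was 51.3 to 1176 in DP, 61.1 to 232 in IMDP, 317 to 2200 in SP and 421 to 1785 in IMSP libraries, and 3 of the 5 tested were called lower (Mpo, Prtn3 and Lcn2). In these bulk samples, fewer cells of a type and less RNA per cell cannot be told apart.

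Promoters are shown for 4 receptors whose 6 G0M+ libraries all lay above their 6 G0M- libraries, as examples of the 7 receptors with this separation. They are the lysophosphatidylserine receptors P2ry10 and Gpr174, which neighbour each other on chromosome X, the adenosine receptor Adora2b and the eotaxin receptor Ccr3. Each runs from 250 bases before to 50 bases after a gene start in RefSeq (GRCm38.p6), all on the plus strand. The windows are chrX:107088242-107088541 for P2ry10, chrX:107284096-107284395 for Gpr174, chr11:62248734-62249033 for Adora2b and chr9:124021721-124022020 for Ccr3. P2ry10 has another start in the table, which is not shown. The start used for Gpr174 lies inside the span of that gene given below, not at its first base. Capitals mark matches, on either strand, to 4 motifs. They are AGATAA, which GATA factors bind, then AGGAAG, which ETS factors bind, then TGTGGT, which RUNX factors bind, and the NF-κB motif by its name.
P2ry10: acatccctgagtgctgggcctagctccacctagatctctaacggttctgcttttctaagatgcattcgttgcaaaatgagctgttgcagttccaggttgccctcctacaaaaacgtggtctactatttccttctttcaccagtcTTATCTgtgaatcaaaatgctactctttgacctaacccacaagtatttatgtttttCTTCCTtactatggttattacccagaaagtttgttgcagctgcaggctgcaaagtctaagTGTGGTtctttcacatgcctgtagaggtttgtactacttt
Gpr174: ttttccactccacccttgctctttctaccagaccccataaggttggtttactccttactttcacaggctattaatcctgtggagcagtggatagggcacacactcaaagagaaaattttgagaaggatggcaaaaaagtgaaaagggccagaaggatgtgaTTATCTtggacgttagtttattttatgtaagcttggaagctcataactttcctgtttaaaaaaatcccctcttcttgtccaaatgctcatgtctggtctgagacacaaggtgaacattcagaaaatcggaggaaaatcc
Adora2b: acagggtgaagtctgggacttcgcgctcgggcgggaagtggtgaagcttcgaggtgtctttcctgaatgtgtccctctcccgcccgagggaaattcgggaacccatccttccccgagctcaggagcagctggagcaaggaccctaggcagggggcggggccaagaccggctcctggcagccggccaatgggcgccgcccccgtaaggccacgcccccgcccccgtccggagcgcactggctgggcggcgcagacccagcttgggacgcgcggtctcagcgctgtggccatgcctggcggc
Ccr3: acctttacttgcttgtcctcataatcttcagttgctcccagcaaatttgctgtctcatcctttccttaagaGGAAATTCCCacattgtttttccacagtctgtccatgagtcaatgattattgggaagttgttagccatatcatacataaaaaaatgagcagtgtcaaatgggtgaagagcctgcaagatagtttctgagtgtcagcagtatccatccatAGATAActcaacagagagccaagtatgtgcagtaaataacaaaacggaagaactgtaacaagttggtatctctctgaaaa
AGATAA occurred in P2ry10, Gpr174 and Ccr3, AGGAAG and TGTGGT in P2ry10, and the NF-κB motif in Ccr3. No marked motif overlapped another. Of all 32851 promoters of this length, 11.2% held AGATAA, 35.4% AGGAAG, 16.8% TGTGGT and 4.51% the NF-κB motif. Of the 121 promoters in the table for 93 of the receptors, 14.9%, 37.2%, 25.6% and 3.31% held them. Adora2b held none of the 4 motifs, and it had 27 CG dinucleotides, against 3 in P2ry10, 2 in Gpr174, 1 in Ccr3 and a median of 7 over all promoters.

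The adhesion receptor Adgrg1 (GPR56), which takes part in the adhesion and maintenance of blood stem cells, had the highest level of all receptors. Its RPKM was 70.5, 104 and 109 in DP, 94.0, 51.3 and 94.5 in SP, 124, 100.3 and 101 in IMDP, and 82.6, 98.1 and 49.7 in IMSP cells. It alone made up 18.2% to 38.9% of the summed receptor RPKM of a library. It was followed by Cxcr4 with a mean of 20.6 RPKM over the 12 libraries, by Adgrg3 (GPR97), an adhesion receptor of myeloid cells that lies next to Adgrg1 on chromosome 8, with 20.1 RPKM, and by Adgrl4, an adhesion receptor known from endothelial cells, with 12.9 RPKM. Gpr171, Adgre5 (CD97), S1pr4, Gpr132, Gpr108 and Adgra3 completed the 10 highest, between 5.97 and 9.77 RPKM.

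**Figure D1:**
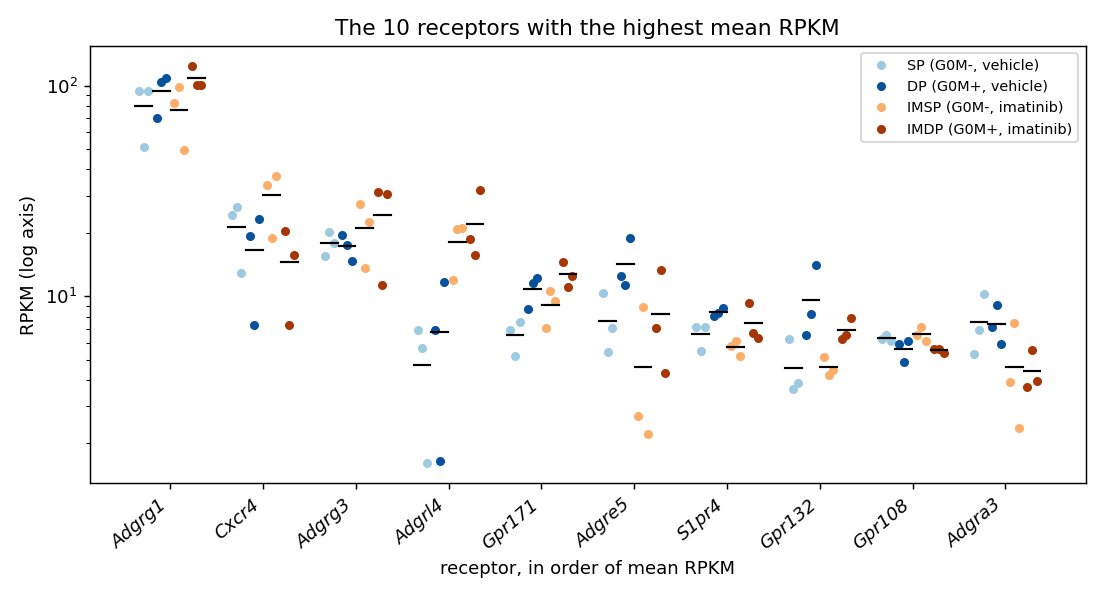
RPKM on a log axis of the 10 receptors with the highest mean, one point per library and a bar at each group mean (n = 3), with SP and DP cells from vehicle-treated and IMSP and IMDP cells from imatinib-treated mice. Adgrg1 lies between 49.7 and 124 RPKM in all libraries, and Adgrl4 lies at 11.6 RPKM or lower in every vehicle library and at 12.0 RPKM or higher in every imatinib library.

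Of the 125 receptors, 40 had a mean of at least 1 RPKM and 46 had a mean under 0.1 RPKM. A total of 64 were above 0 in all 12 libraries. A level of 1 RPKM in 3 or more libraries was asked for a test, and 47 receptors met it, among 10072 genes in all. Their means ran from 0.772 to 89.9 RPKM. The 78 others had a median of 0.055 RPKM, which at these depths is about the value of 1 read on a kilobase of transcript. Only 1 of 10 Ccr receptors, Ccr2, and 3 of 6 Cxcr receptors, Cxcr4, Cxcr2 and Cxcr6, passed this filter. It admits a gene through a single group of 3, so counts among tested receptors do not stand for all receptors.

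G0M+ cells were first compared with G0M- cells over both treatments. Of the 47 tested receptors, 7 passed an adjusted p of 0.05 in limma, against 26.3% of all genes tested, and all 7 were higher in G0M+ cells. Higher calls made up 5.32% of all genes and lower calls 21.0%. They were the lysophosphatidylserine receptor P2ry10, the adenosine receptors Adora2a and Adora2b, the macrophage adhesion receptor Adgre1 (F4/80), the lipid-sensing Gpr132, Gpr171 and the leukocyte S1P receptor S1pr4. The median log2 fold change was 0.26 over the 47 receptors and -0.13 over all genes, and the receptors' values below are given without subtracting that shift.

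P2ry10 changed most. Its RPKM was 1.69, 1.3 and 2.21 in DP and 0.463, 0.241 and 0.253 in SP cells, and 3.14, 4.32 and 2.09 in IMDP and 0.91, 1.14 and 0.732 in IMSP cells. Every G0M+ library was above every G0M- library, and within each population the 3 imatinib libraries had the higher mean. The log2 fold change was 2.14 (SE 0.332, adjusted p = 0.00597) in DP against SP cells, 1.64 (SE 0.332, adjusted p = 0.00628) in IMDP against IMSP cells and 1.89 (SE 0.235, adjusted p = 0.000217) over both. These 3 calls held under each of the alternatives run for them and without any one library. P2ry10 did not reach 1 RPKM in 3 G0M- libraries, so it was tested only through G0M+ libraries.

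The Gs-coupled adenosine receptors Adora2a and Adora2b reached the filter only through G0M+ libraries, as none of the 6 G0M- libraries held 1 RPKM of either, so which adenosine receptors were tested was in part set by this difference. Adora2a was at 1.09, 1.13 and 1.53 RPKM in DP against 0.544, 0.451 and 0.612 in SP, and at 1.16, 1.56 and 1.46 in IMDP against 0.452, 0.958 and 0.546 in IMSP cells. Adora2b was at 1.59, 0.866 and 0.806 RPKM in DP against 0.211, 0.16 and 0.644 in SP, and at 2.1, 1.06 and 0.80 in IMDP against 0.247, 0.143 and 0.684 in IMSP cells. The G0M+ and G0M- libraries did not overlap in either gene, a separation seen in 4 of the 47 receptors (with P2ry10 and Gpr132) and in 8.21% of all tested genes. The log2 fold change over both treatments was 1.06 (SE 0.225, adjusted p = 0.00702) for Adora2a and 1.62 (SE 0.415, adjusted p = 0.0157) for Adora2b. As both were tested only through G0M+ libraries, these p-values are no independent support for the difference. Within DP and within IMDP cells, the order of the libraries by Adora2b was that by the sum of mast cell and basophil genes (333, 87.1 and 76.9 RPKM in DP, 195, 45.6 and 14.9 in IMDP), and the part of these cells in the result was not tested. The other adenosine receptors were near the limit of detection. Adora1, which is Gi-coupled, had 11 reads in all libraries together. Adora3, a receptor of mast cells, had 56 of its 77 reads in DP replicate 1, the library with the highest sum of mast cell and basophil genes (333 RPKM), and their part in the result was not tested.

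Gpr132, a receptor for oxidized lipids and lysophospholipids, was at 6.51, 8.19 and 14.1 RPKM in DP, 6.23, 3.61 and 3.87 in SP, 6.26, 6.51 and 7.91 in IMDP and 5.16, 4.23 and 4.48 in IMSP cells. The nearest libraries were 6.26 in IMDP and 6.23 in SP cells, so the separation was narrow at that point, and the log2 fold change was 0.79 (SE 0.191, adjusted p = 0.0122). Gpr171, a Gi-coupled receptor expressed in blood cells, was at 8.67, 11.5 and 12.2 RPKM in DP, 6.9, 5.19 and 7.58 in SP, 14.6, 11.0 and 12.4 in IMDP and 7.03, 10.6 and 9.47 in IMSP cells. Over both treatments it was higher by 0.61 on the log2 scale (SE 0.145, adjusted p = 0.0117). Its groups did not overlap within either treatment, although IMSP libraries reached above DP replicate 1.

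S1pr4 and Adgre1 passed narrowly. S1pr4 was at 8.06, 8.3 and 8.81 RPKM in DP, 7.11, 5.49 and 7.17 in SP, 9.25, 6.71 and 6.31 in IMDP and 5.83, 6.14 and 5.18 in IMSP cells, a log2 fold change of 0.35 (SE 0.118, adjusted p = 0.0446). Leaving out any library other than IMDP replicate 3, IMSP replicate 2 or SP replicate 3 ended its call (adjusted p = 0.0547 to 0.107). Adgre1 was at 3.87, 0.507 and 1.01 RPKM in DP, 0.207, 0.306 and 0.226 in SP, 2.83, 0.881 and 1.21 in IMDP and 0.746, 0.161 and 1.45 in IMSP cells, a log2 fold change of 1.58 (SE 0.53, adjusted p = 0.0454). Its call ended without any library other than DP replicate 2 or IMSP replicate 3 (adjusted p = 0.0544 to 0.089). Adgre1 was highest in DP replicate 1 and IMDP replicate 1, which also had the highest sums of mast cell and basophil genes (333 and 195 RPKM). The summed RPKM of 10 macrophage and monocyte genes was 6.36 to 13.7 in DP, 3.65 to 14.3 in SP, 18.6 to 22.6 in IMDP and 9.8 to 62.1 in IMSP libraries. Of the 5 tested, 2 were called higher in G0M+ cells, C1qc and Vcam1, against 5.32% of all genes. Only 3 of the 5 were higher at all, with a median log2 fold change of 0.059 against -0.13 over all genes. After the 2 libraries named, Adgre1 was highest in IMSP replicate 3 (1.45 RPKM), which had the highest macrophage and monocyte sum (62.1 RPKM). The part of these cells in the result was not tested.

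**Figure D2:**
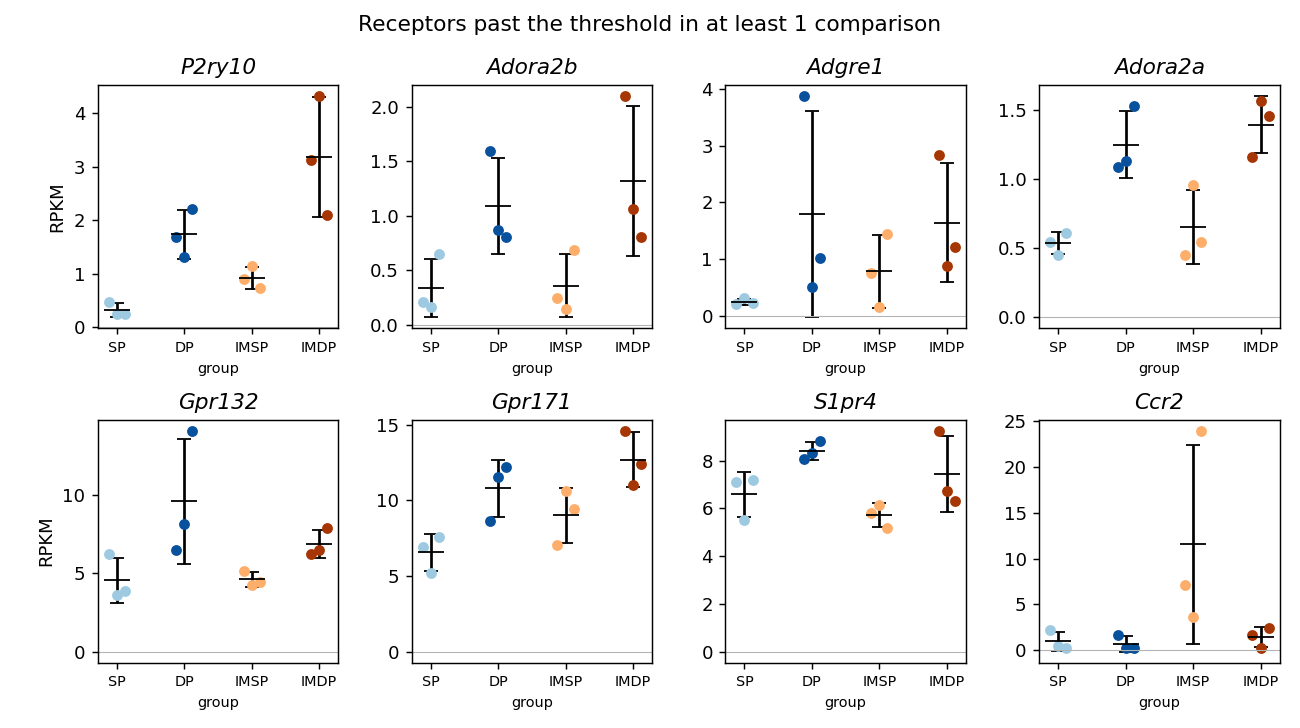
RPKM of the 8 receptors past an adjusted p of 0.05 in at least 1 comparison, with one point per library and the mean and SD of each group (n = 3). P2ry10, Adora2b, Adora2a and Gpr132 are higher in every G0M+ library (DP and IMDP) than in any G0M- library (SP and IMSP), and Ccr2 is highest in the 3 IMSP libraries (3.64, 7.1 and 23.9 RPKM).

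In vehicle-treated mice, P2ry10 alone passed the threshold between DP and SP cells, 1 of 47 receptors against 2.26% of all genes. The libraries of the 2 groups did not overlap in 15 receptors, all higher in DP cells, against 22.4% of all genes in either direction. After P2ry10 the largest rises were in Adgre1 (2.01, SE 0.749, adjusted p = 0.268) and Adora2b (1.54, SE 0.587, adjusted p = 0.279). The largest falls were in the orphan receptors Gpr141 (-1.21, SE 0.867, adjusted p = 0.571) and Gpr160 (-0.71, SE 0.555, adjusted p = 0.595) and in Cxcr4 (-0.44, SE 0.48, adjusted p = 0.707), none of which passed the threshold in this test. Without DP replicate 1, Gpr132 also passed (1.26, adjusted p = 0.0308), and without DP replicate 3, Gpr180 did (1.00, adjusted p = 0.0341), so the count was 2 in each case.

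In imatinib-treated mice, 3 of 47 receptors passed between IMDP and IMSP cells, against 25.6% of all genes. P2ry10 (1.64) and Adora2a (1.04, SE 0.318, adjusted p = 0.0336) were higher in IMDP cells, and Ccr2, the receptor by which inflammatory monocytes leave the BM, was lower (-2.90, SE 0.979, adjusted p = 0.0476). As given above, P2ry10 and Adora2a were tested only through G0M+ libraries. Ccr2 stood at 7.1, 3.64 and 23.9 RPKM in IMSP cells, at 1.72, 0.237 and 2.41 in IMDP cells, at 1.72, 0.209 and 0.256 in DP cells and at 2.19, 0.505 and 0.243 in SP cells. All 3 IMSP libraries were thus above all other libraries, and they differed widely among themselves. The call for Ccr2 ended when DP replicate 2 or 3, SP replicate 2, IMSP replicate 1 or 3, or any IMDP library was left out (adjusted p = 0.0521 to 0.188), and it held in 12 of 26 alternatives run. IMSP replicate 3, where Ccr2 was highest, also had the highest sum of macrophage and monocyte genes (62.1 RPKM) and 86 of the 262 reads of Ccr1, another receptor of monocytes, and their part in the result was not tested. The call for Adora2a ended without IMDP replicate 2 or 3 or IMSP replicate 1 or 3 (adjusted p = 0.0759 to 0.13). Without IMDP replicate 2, IMDP replicate 3 or IMSP replicate 1, 1 receptor was called. Without IMSP replicate 2, 8 were called, against 25.3% of all genes, with additions that included P2ry13, P2ry14 and Adgre5 (higher in IMDP cells) and Gpr141 (lower).

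The groups did not overlap in 15 receptors, 10 higher and 5 lower in IMDP cells, against 39.0% of all genes. The largest rise beside P2ry10 was that of Adora2b (1.71, SE 0.587, adjusted p = 0.0512), and Adgre1 came next (1.15, adjusted p = 0.27). After Ccr2, the largest falls were those of Gpr141 (-2.21, SE 0.867, adjusted p = 0.0797) and Cxcr4 (-1.11, SE 0.48, adjusted p = 0.107).

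Libraries with neighbouring library numbers, 1 G0M+ and 1 G0M- library each, deviated together from their group means (correlation across genes 0.43 to 0.65 in all 6 pairs). No source states that these numbers mark a shared mouse or day. With the pair as a block, 23 of 47 receptors passed between G0M+ and G0M- cells, 16 higher and 7 lower, against 46.9% of all genes. In the separate comparisons, 7 passed in DP against SP cells (9.73% of all genes), all higher. These were P2ry10, Gpr132, Adgre5, Gpr180, Gpr171, Adora2a and Adgre1. Between IMDP and IMSP cells, 17 passed (44.1% of all genes), 10 higher and 7 lower.

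Cxcr4, the homing receptor for Cxcl12, was among the receptors that passed with this block. Its RPKM was 19.4, 7.31 and 23.2 in DP, 24.3, 26.5 and 12.9 in SP, 20.5, 7.33 and 15.7 in IMDP and 33.9, 19.0 and 37.3 in IMSP cells. The groups overlapped, but the G0M+ library was the lower one in 6 of 6 pairs. With the block, the log2 fold change was -1.11 (SE 0.163, adjusted p = 0.000927) in IMDP against IMSP cells and -0.78 (SE 0.115, adjusted p = 0.000874) over both treatments, against an adjusted p of 0.107 for both without it. In DP against SP cells it passed neither way (-0.44, adjusted p = 0.118 with the block), and without DP replicate 2 the unblocked value turned to 0.068. In all, the G0M+ library was the higher one in 6 of 6 pairs for 11 tested receptors and the lower one for 7, against 11.3% and 24.9% of all genes.

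Of the receptors lower in G0M+ cells with the block, Gpr141 was lower in 6 of 6 pairs. It had 1.67, 0.12 and 0.454 RPKM in DP, 1.24, 2.65 and 0.619 in SP, 0.208, 0 and 0.19 in IMDP and 1.41, 0.26 and 1.52 in IMSP cells (log2 fold change over both treatments -1.71, SE 0.262 and adjusted p = 0.00102 with the block). S1pr3, a Gi- and Gq-coupled S1P receptor, had 1.83, 0.944 and 1.78 RPKM in IMDP and 4.2, 2.26 and 3.64 in IMSP cells, but 3.0, 4.43 and 1.31 in DP and 1.47, 3.67 and 3.59 in SP cells. Its log2 fold change with the block was -1.11 (SE 0.159, adjusted p = 0.000858) in IMDP against IMSP cells. The others were Ccr2, Gpr160, the nucleotide receptor P2ry2 and Gpr89, the Golgi pH regulator, which no longer passed with median scaling and the block together (-0.17, adjusted p = 0.0871, over both treatments). Gpr89 shares exon sequence with Gja5 and Pdzk1 on the other strand, and the library kit did not mark strand.

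Of the receptors higher in G0M+ cells with the block, Adgre5, the CD55-binding adhesion receptor, rose in 6 of 6 pairs. It had 12.5, 11.3 and 18.8 RPKM in DP, 10.4, 5.41 and 7.07 in SP, 7.08, 13.3 and 4.33 in IMDP and 2.7, 8.85 and 2.22 in IMSP cells (0.93, SE 0.116, adjusted p = 0.000355 with the block and 0.0684 without). Its exons overlap those of Ddx39 on the other strand, so reads of the 2 genes cannot be told apart. Adgrg1 (0.41, adjusted p = 0.0169 with the block, 0.15 without), the prostaglandin E2 receptors Ptger1 (0.43) and Ptger4 (0.41), the nucleotide receptors P2ry13 (0.89) and P2ry14 (0.59), S1pr1 (0.84), Gpr157 (0.72) and Gpr180 (0.39) also passed with the block over both treatments.

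**Figure D3:**
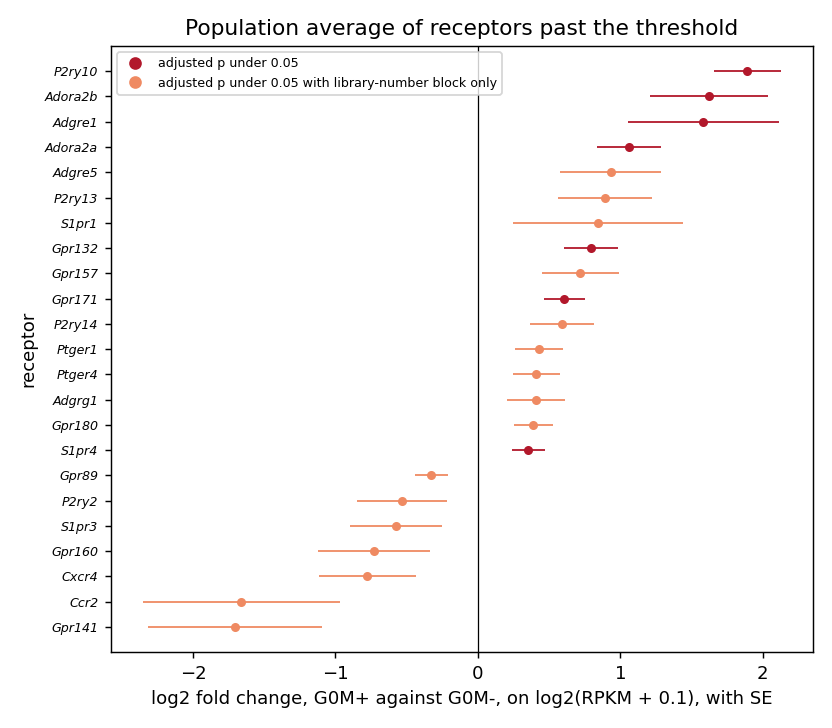
Log2 fold change of G0M+ against G0M- cells averaged over vehicle and imatinib for the 23 of 47 tested receptors past the threshold with or without the block, with the SE of the fit without block. Red points passed an adjusted p of 0.05 without block (7 receptors, all to the right of 0), and orange points passed only with neighbouring library numbers as a block (16 more, 9 to the right and 7 to the left).

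**Figure D4:**
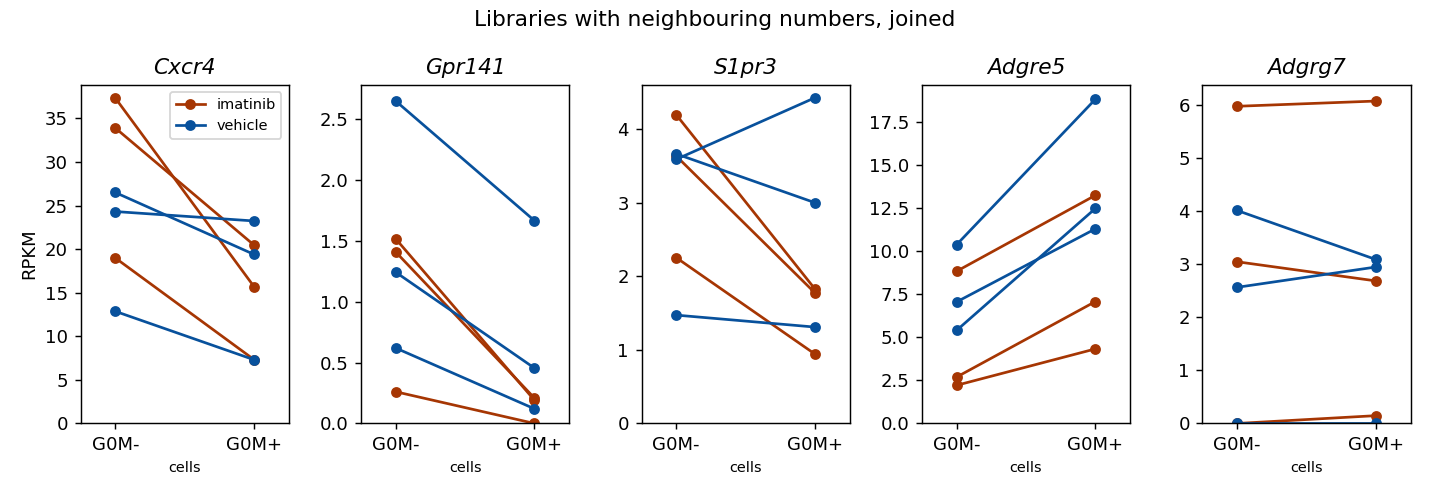
RPKM of 5 receptors in G0M- and G0M+ libraries, with libraries of neighbouring library numbers joined by a line (3 vehicle pairs in blue, 3 imatinib pairs in brown). Cxcr4 and Gpr141 fall and Adgre5 rises from the G0M- to the G0M+ library in each of the 6 pairs, S1pr3 falls in 5 of 6, and Adgrg7 is at or near 0 in both libraries of 2 pairs and between 2.57 and 6.08 RPKM in the other pairs.

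Most genes were lower in IMDP than in IMSP cells, with a median log2 fold change of -0.25 over all genes against 0.22 over the receptors. After all libraries were brought to a common median RPKM, 6 receptors passed in IMDP against IMSP cells (15.5% of all genes) and 16 passed over both treatments (23.4% of all genes), all higher in G0M+ cells, and Ccr2 no longer passed. Scaling also moved the share of higher calls over all genes from 9.26% to 40.7% in IMDP against IMSP cells and from 20.2% to 47.3% over both treatments. Receptors added in IMDP against IMSP cells were S1pr4 (0.63), Gpr171 (0.77), Adora2b (1.92) and Ptger4 (0.79). With the median scaling and the block together, which were combined after seeing the data, 45.2% of all genes passed over both treatments and Cxcr4 was lower in G0M+ cells over both treatments (-0.62, adjusted p = 0.00282), as were Gpr141 (-1.61), S1pr3 (-0.43), Gpr160 (-0.57), Ccr2 (-1.52) and P2ry2 (-0.38).

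Some receptors below the filter also separated the populations, and of those described here Gpr174 and Gpr4 were chosen after their values were seen. Of the 125 receptors, 7 were higher in every G0M+ library than in any G0M- library and none was lower, against 1.07% and 4.26% of the 16776 genes above 0. They were the 4 receptors given above, Gpr4, Gpr174 and Ccr3. Ccr3, the eotaxin receptor of eosinophils, basophils and mast cells, had 3, 8 and 7 reads in DP and 13, 26 and 54 reads in IMDP cells, and 0 reads in all 6 SP and IMSP libraries. This pattern, above 0 in all G0M+ and at 0 in all G0M- libraries, was found in 4 genes (0.0238%). Summed over libraries, the 111 reads in G0M+ cells were at least 38.1-fold higher per read sequenced than the limit of 3 counts that a count of 0 allows for the 6 G0M- libraries together, an interval that covers counting error only.

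By replicate, the summed mast cell and basophil genes stood at 333, 87.1 and 76.9 RPKM in DP and 195, 45.6 and 14.9 RPKM in IMDP cells. Ccr3 did not follow these sums, as its reads were fewest in DP replicate 1 and IMDP replicate 1, where the sums were highest. The sum of 4 eosinophil genes was at most 0.137 RPKM in any library. The part of these cells in the result was not tested.

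Gpr174 had 38, 13 and 13 reads in DP, 2, 3 and 0 in SP, 10, 7 and 10 in IMDP and 1, 1 and 1 in IMSP cells, a total of 91 reads in G0M+ against 8 in G0M- cells. Gpr174 (chromosome X, 107255878 to 107296769) and P2ry10 (chromosome X, 107088492 to 107104974) are neighbours, both receptors for lysophosphatidylserine, and both were higher in G0M+ cells. The related Gpr34, on another part of chromosome X within Cask, had 20, 9 and 12 reads in DP, 10, 6 and 2 in SP, 5, 8 and 7 in IMDP and 8, 7 and 5 in IMSP cells, so its imatinib groups overlapped. Gpr4, a proton-sensing receptor, had 22, 29 and 21 reads in DP, 14, 1 and 4 in SP, 19, 27 and 28 in IMDP and 8, 13 and 4 in IMSP cells. With the filter lowered to 0.1 RPKM in 3 libraries, 11 receptors passed over both treatments (20.3% of all genes), S1pr4 no longer among them. Ccr3 and Gpr174 entered that test only through G0M+ libraries, so their calls are no support and their p-values are not given.

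**Figure D5:**
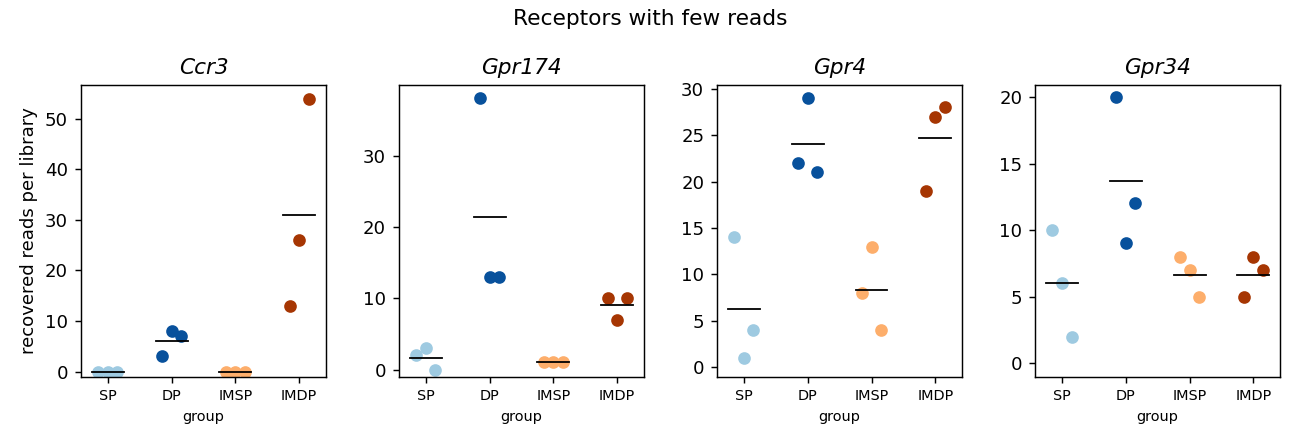
Reads per library of 4 receptors under the filter, with one point per library and a bar at each group mean (n = 3). Ccr3 has reads in the DP and IMDP libraries and 0 in the SP and IMSP libraries, Gpr174 and Gpr4 are higher in every DP and IMDP library than in any SP or IMSP library, and Gpr34 is highest in DP cells.

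The effect of imatinib was then examined within each population. No receptor passed in IMDP against DP cells in limma (0.367% of all genes passed, and at an unadjusted p under 0.05, 4 receptors and 20.5% of all genes) or in IMSP against SP cells (0.0% of all genes, and unadjusted 11 receptors and 8.39% of all genes). The libraries did not overlap in 6 of 47 receptors in IMDP against DP cells, 5 higher and 1 lower, against 23.6% of all genes, and in 15 of 47 in IMSP against SP cells, 14 higher and 1 lower, against 13.8%. None passed with limma-voom on the recovered reads either. Averaged over both populations, none passed in limma (0.854% of all genes, and unadjusted 15 receptors and 18.0% of all genes), whereas 2 passed with limma-voom (1.35% of all genes). No interaction of population and treatment passed in limma or limma-voom (0.0% of all genes in limma, and unadjusted 1 receptor, Gpr180, and 9.3% of all genes).

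The treatment average was highest in Ccr2 (2.22, SE 0.692, adjusted p = 0.131), whose vehicle and imatinib libraries overlapped, and next in Adgrl4. Adgrl4 was at 6.9, 1.65 and 11.6 RPKM in DP and 6.88, 5.7 and 1.61 in SP, against 18.6, 15.6 and 31.9 in IMDP and 12.0, 20.9 and 21.2 in IMSP cells. All imatinib libraries lay above all vehicle libraries, as they did in Gpr22 and in 1.12% of all genes. The log2 difference of Adgrl4 was 2.05 (SE 0.463, adjusted p = 0.0574), which missed the threshold, and it passed with a pseudocount of 1 (adjusted p = 0.0497), with limma-voom (adjusted p = 0.0476) and without DP replicate 3 (adjusted p = 0.0424). Gpr22 was at 0.56 to 0.641 RPKM in DP and 0.615 to 0.858 in SP, against 1.07 to 1.2 in IMDP and 0.93 to 0.986 in IMSP cells, a log2 difference of 0.59 (SE 0.187, adjusted p = 0.136), and it passed with limma-voom (adjusted p = 0.0498) and with no variance trend (adjusted p = 0.0272). It met the filter of 1 RPKM only through the IMDP libraries, so these p-values are no independent support for a difference with treatment. P2ry10 was also at 1.06 (SE 0.235, adjusted p = 0.0574), and passed with median scaling (adjusted p = 0.0465). Without DP replicate 3, Gpr18 passed as well (0.99, adjusted p = 0.0233), and without IMSP replicate 2, Adgra3 passed (-0.98, adjusted p = 0.049).

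Within IMSP against SP cells the largest values were those of Ccr2 (3.47, SE 0.979, adjusted p = 0.436), Adgrl4 (2.09, adjusted p = 0.45) and P2ry10 (1.31, adjusted p = 0.406), and the lowest those of Adgre5 (-0.95, adjusted p = 0.641), Adgra3 (-0.80, adjusted p = 0.589) and Gpr141 (-0.53, adjusted p = 0.931). Within IMDP against DP cells they were Adgrl4 (2.01, adjusted p = 0.135), Ccr2 (0.98, adjusted p = 0.606) and Gpr65, a proton-sensing receptor (0.88, adjusted p = 0.359), and on the other side Gpr141 (-1.53, adjusted p = 0.344), Adgre5 (-0.89, adjusted p = 0.337) and S1pr3 (-0.80, adjusted p = 0.349). The design has 3 libraries a group, and misses of this kind do not show equal levels.

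Several families held members at very different levels. Among chemokine receptors, Cxcr4 (20.6 RPKM over all libraries) and Ccr2 (3.68) were followed by Cxcr2, the neutrophil receptor for Cxcl1 and its relatives (1.16), and Cxcr6 (0.772). Ccr1 (0.53), the thymus-homing receptor Ccr9 (0.209), Ccr3 (0.173), the lymph node-homing receptor Ccr7 (0.0672) and Cxcr3 (0.0373) lay below the filter. Cxcr2 did not pass any comparison (0.10 over both treatments, adjusted p = 0.843).

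Among S1P receptors, S1pr4 (7.03 RPKM) was ahead of S1pr3 (2.68), S1pr2 (1.95) and S1pr1 (1.16). S1pr1, by which lymphocytes and progenitors exit into blood, varied widely between libraries, at 0.801, 0.591 and 3.59 in DP, 1.97, 0.175 and 0.564 in SP, 0.92, 1.69 and 1.11 in IMDP and 0.15, 1.39 and 0.979 in IMSP cells. Its highest libraries, DP replicate 3 and SP replicate 1, are neighbours by library number. S1pr2 was lower in the G0M+ library of 6 of 6 pairs but did not pass (-0.25, adjusted p = 0.228). Of the prostaglandin E2 receptors, the Gs-coupled Ptger4 (5.2 RPKM) was highest, ahead of Ptger1 (3.23), the Gi-coupled Ptger3 (1.95) and Ptger2 (0.162). Ptger4 and Ptger1 are among 12 tested receptors whose exons overlap those of a gene on the other strand, so reads of the 2 strands cannot be told apart. The lysophosphatidic acid receptors Lpar6 (2.52 RPKM), Lpar2 (1.89) and Lpar5 (1.63) passed no comparison without scaling or block, and Lpar6 lies within Rb1, whose exons it shares on the other strand.

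Gpr171, P2ry14, P2ry13 and P2ry12 lie close together on chromosome 3 (59096448 to 59262871) within Med12l, a Mediator subunit gene. P2ry14 is the receptor for UDP-glucose and P2ry12 and P2ry13 are receptors for ADP. P2ry14 was at 5.46, 6.29 and 4.68 RPKM in DP, 3.48, 2.13 and 4.25 in SP, 5.9, 8.03 and 7.46 in IMDP and 3.92, 9.14 and 4.07 in IMSP cells, and P2ry13 was at 1.52, 1.19 and 1.44, 0.75, 0.63 and 0.793, 1.26, 2.05 and 1.52, and 0.405, 2.12 and 0.499 in the same order. In both genes IMSP replicate 2 stood apart from the other IMSP libraries. The 5 receptor genes inside Med12l, with Gpr171, P2ry14, P2ry13 and P2ry12 among them, were all highest there among IMSP libraries. Med12l itself was highest there too (5.32 RPKM against 1.84 and 1.27). Without this library, P2ry14 (0.79, adjusted p = 0.0104) and P2ry13 (1.23, adjusted p = 0.00238) passed over both treatments, and the receptors called numbered 12 (29.0% of all genes).

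Adgrg7, an adhesion receptor chosen after its values were seen, was either present or near absent. It had 0, 153 and 138 reads in DP, 167, 0 and 171 in SP, 6, 286 and 144 in IMDP, and 0, 215 and 130 in IMSP cells. The 4 libraries at or near 0 were DP replicate 1 with SP replicate 2, and IMDP replicate 1 with IMSP replicate 1, which are 2 pairs of neighbouring library numbers. It passed no comparison (0.16 in G0M+ against G0M- cells, adjusted p = 0.94).

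The signalling genes downstream were set against the 5.32% of all genes called higher and 21.0% called lower over both treatments. In IMDP against IMSP cells, 239 of 10072 genes were called higher and 2342 lower. Among 8 tested of 13 G protein alpha subunits, the inhibitory Gnai2 and Gnai3 were lower in IMDP than in IMSP cells (-0.57, adjusted p = 0.00647, and -0.62, adjusted p = 0.0188) and over both treatments, where the list's median was -0.12 against -0.13 over all genes. Among 8 of 15 beta and gamma subunits, Gnb2 (-0.38, adjusted p = 0.00946) and Gng12 (-0.98, adjusted p = 0.0233) were lower over both treatments, with a median of -0.16, and 3 of the 8 (with Gng10) were lower in IMDP than in IMSP cells. Rgs1 and Rgs2, which shorten Gi and Gq signals, rose among 8 tested of 20 RGS genes (1.27, adjusted p = 0.0127, and 1.08, adjusted p = 0.00216), and the list's median was 0.18. Rgs2 was at 15.0, 14.5 and 18.3 RPKM in DP, 11.3, 5.39 and 6.71 in SP, 12.8, 9.65 and 15.1 in IMDP and 4.78, 6.93 and 5.84 in IMSP cells, where the groups did not overlap within either treatment. Among 10 of 20 adenylyl cyclases and cAMP phosphodiesterases, Pde7a rose (0.42, adjusted p = 0.026). None of 5 tested receptor kinases and arrestins passed, and Ccrl2, the 1 tested of 5 scavenging chemokine receptors, did not pass (0.53, adjusted p = 0.318).

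Among genes for ligands, 2 of 8 tested chemokines rose in G0M+ cells over both treatments, from a list of 33, against 5.32% of all genes called higher. They were Ccl6 (4.53, SE 0.996, adjusted p = 0.00812) and Ppbp, a platelet chemokine (4.66, SE 1.12, adjusted p = 0.0119), and both varied widely among G0M+ libraries. Ccl6 was at 88.0, 2.4 and 22.4 RPKM in DP and 58.9, 15.7 and 0.74 in IMDP cells, and at 0.184 to 0.775 RPKM in the 6 G0M- libraries. It thus met the filter only through G0M+ libraries, so the filter had a part in its call and in the count. It was highest in DP replicate 1 and IMDP replicate 1, where the mast cell and basophil sums were also highest (333 and 195 RPKM), and the part of these cells was not tested. Of 10 tested enzymes that make or remove lipid and nucleotide ligands, 3 rose and 2 fell. Entpd1 (CD39), which degrades ATP and ADP toward adenosine precursors, rose (1.29, adjusted p = 0.00379), as did Ptgs2 (1.23, adjusted p = 0.0407), the inducible prostaglandin synthase, and Hsd3b7 (0.49, adjusted p = 0.0407), which removes the Gpr183 ligand. The prostaglandin E synthases Ptges2 (-0.53) and Ptges3 (-0.51) fell. Gpr183, the receptor for oxysterols, was at 0.621 to 2.82 RPKM and passed no comparison.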

How the data were processed

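RNA-seq was made from 12 libraries of 100 sorted cells, 3 per group. The authors deposited 1 table per library of RPKM values per gene. Per the labels, the authors' processing used GRCm38, mm10 and edgeR without a version, the study's methods name CLC Genomics Workbench and its reporting summary names HISAT2 and featureCounts, and which of them made the deposited RPKM is not given in the sources used here. The cDNA was amplified by PCR without molecular identifiers, so counting error is a lower bound of the error.

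Numbered copies (4568 features of 1934 genes) were summed, which left 46103 genes. Read counts were recovered from the steps of the RPKM values and came out whole for 17732 of 17735 features above 0, within 0.002 of a read. The 10072 genes at 1 RPKM or more in 3 or more libraries were fitted with limma 3.58.1 (R 4.3.3, variance trend) on log2(RPKM + 0.1), which understates changes of low genes, with 4 group means over all 12 libraries, 7 comparisons and Benjamini-Hochberg adjustment over all genes tested, with a threshold of 0.05. The fit was tested on simulated data. Alternatives included median scaling, limma-voom on the recovered reads with that scaling (added after the data were seen, in place of a planned voom fit with TMM factors, which is not reported because the deposited unit is RPKM), other filters and pseudocounts, blocks and leaving out each library. Tables were made in Python 3.11.15 with pandas 2.3.3 and numpy 2.4.6, and figures with matplotlib 3.10.9.

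Receptors were named when past the threshold in any comparison, among the 10 highest by mean RPKM, among the 3 largest rises or falls of a pairwise comparison, or on a textbook list of blood cell receptors, and those at the detection limit were given as counts. Exceptions are marked in the text. The members and lists were chosen with earlier results of these data known.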

Additional observations from a re-analysis of the deposited data

How the results depend on the processing

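The number of receptors called depended on the filter, scaling and block. In DP against SP cells (1 receptor, 2.26% of all genes), it was 2 of 125 with no filter (202 of 16776 genes) and 2 with no variance trend. It was 7 with the library-number block (9.73% of all genes) and 11 of 85 with the lower filter and that block (962 of 13148 genes). With median scaling and the block it was 9 (1479 of 10072 genes). In IMDP against IMSP cells (3, 25.6% of all genes), it was 5 of 85 with the lower filter (2418 of 13148 genes) and 6 with median scaling (15.5% of all genes). It was 8 with limma-voom (1511 of 10069 genes) and 17 with the block (44.1%). With the block it was 21 of 85 under the lower filter (4561 of 13148 genes) and 20 under median scaling (3932 of 10072 genes). Over both treatments (7, 26.3% of all genes), it was 11 of 125 with no filter (2321 of 16776 genes) and 11 of 85 with the lower filter (20.3% of all genes). It was 16 with median scaling (23.4%), 16 with limma-voom (2433 of 10069 genes) and 23 with the block (46.9%). With the block it was 30 of 85 under the lower filter (5047 of 13148 genes) and 28 under median scaling (45.2%). For the treatment average (0, 0.854% of all genes), it was 1 with a pseudocount of 1, 1 with median scaling (162 of 10072 genes), 1 with no variance trend and 2 with limma-voom (1.35% of all genes). Limma-voom with median scaling and the fits that joined the block with the lower filter or with median scaling were chosen after seeing the data. The cause of these differences was not tested.

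Leaving out 1 library at a time gave 1 to 2 receptors in DP against SP cells, 1 to 8 in IMDP against IMSP cells, 5 to 12 over both treatments, 0 to 2 for the treatment average, and 0 in IMDP against DP cells, IMSP against SP cells and the interaction. The highest counts in IMDP against IMSP cells and over both treatments came without IMSP replicate 2. The value of Cxcr4 in DP against SP cells (-0.44) ran from -0.77 to 0.068 when 1 library was left out and turned without DP replicate 2, and that of Gpr141 in IMSP against SP cells (-0.53) ran from -1.004 to 0.17 and turned without IMSP replicate 2, neither being called. Of the alternatives for single receptors, 1409 kept direction and side of the threshold, 151 passed newly, 44 no longer passed and 2 turned.

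With the replicate block, which takes the replicate number as a pair, 1 receptor was called in DP against SP cells (240 of 10072 genes). It was 3 in IMDP against IMSP cells (2781 genes), 8 over both treatments (2811 genes) and 0 in the other comparisons (at most 59 genes). Same-numbered libraries deviated together in imatinib-treated mice (r = 0.43, 0.65 and 0.46 across genes) but not in vehicle-treated mice (-0.19, -0.30 and -0.10), so the replicate numbers share only a number there. At 1 read per kilobase, the step was 0.0486 to 0.088 RPKM, which limits what can be read from receptors under the filter.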

Other observations

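Values of other marker lists, not used above, are given as sums of RPKM per library. The sum of 7 erythroid genes was 202 to 246 in DP, 51.0 to 145 in SP, 58.4 to 224 in IMDP and 10.7 to 72.9 in IMSP libraries, and 1 of 5 tested genes was called higher in G0M+ cells. The sum of 6 megakaryocyte genes was 28.3 to 70.3 in DP, 12.1 to 47.4 in SP, 17.9 to 77.0 in IMDP and 7.43 to 57.4 in IMSP libraries, with 0 of 5 tested called in limma. The sum of 10 lymphocyte genes was 84.5 to 175 in DP, 92.6 to 267 in SP, 28.1 to 85.8 in IMDP and 64.8 to 166 in IMSP libraries, with Ebf1 at 0 in all libraries. The sum of 9 blood stem and progenitor genes was 116 to 152 in DP, 91.2 to 114 in SP, 136 to 202 in IMDP and 139 to 147 in IMSP libraries, and Ly6a was called higher in G0M+ cells.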
